A study of Mus musculus with 16 samples.

Results

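The GATA transcription factors were represented by 5 of the 20794 probes on a mouse 2-colour array, those with a platform gene symbol of Gata1 to Gata6, which named 4 of the 9030 genes on it. Gata2 had 2 probes (2785 and 18417), Gata1 (probe 20307), Gata3 (probe 5655) and Gata6 (probe 2963) had 1 each, and no probe carried the name Gata4 or Gata5. The arrays compared EMP3 mutant mice with wild-type mice, EMP3 (epithelial membrane protein) belonging to the PMP22 family of small membrane proteins. The sample labels give the RNA as spleen and thymus of 4 male mutant mice aged 17 weeks. The title of the series instead speaks of brain beside thymus; here the labels of the samples were followed. The reference on each array was RNA of the same tissue pooled from wild-type males of the same age, 4 animals by the channel labels and the design text and 6 by the labelling protocol. The sources used here do not give the strain, the kind of mutation or the Emp3 allele. For each mouse and tissue there were 2 arrays of opposite dye orientation, 8 arrays per tissue, and their mean was 1 replicate. The thymus pair of mouse 2 was left out because its arrays were near mirror images (Pearson's r = -0.922 across probes), which leaves n = 4 mice in spleen and n = 3 in thymus.

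GATA factors are zinc finger proteins named for the DNA letters they bind. GATA2 maintains blood stem and progenitor cells and mast cells, and GATA1 takes over as those cells become red cells, megakaryocytes, eosinophils and mast cells. GATA3 is needed for T cell development in the thymus and for T helper 2 cells. GATA4, GATA5 and GATA6 act mainly in heart, gut and other organs outside the blood, with GATA6 also found in some tissue macrophages.

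The values are log ratios, read as log2 of mutant over pool, so a value of -1 is a mutant signal at 0.5 of the pool. Neither the log base nor the numerator is stated in the labels, and the numerator is the likely one from the design text. With the pool as numerator all directions turn round. A ratio shows no expression level, so the tissues could not be checked against their markers and no gene can be called more abundant than another. In these whole organs, fewer cells of a type and less RNA per cell cannot be told apart. The GATA probes were chosen by their symbols with their spleen ratios already known, among them the disagreement of the 2 Gata2 probes. Their spleen ratios, and the spleen-to-thymus differences that use them, are given as a description with no test.

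An array held 20176 to 20670 values with medians between -0.023 and 0.086. Precision is limited by the number of arrays and mice, since the files hold ratios without intensities. Emp3 itself was at a spleen log2 ratio of 0.20 ± 0.25 (SD, n = 4) at probe 4348 and 0.27 ± 0.38 (SD, n = 4) at probe 11822, with adjusted p = 0.204 and 0.214 in limma. In thymus these probes were at -0.04 ± 0.10 and 0.05 ± 0.05 (SD, n = 3; adjusted p = 0.886 and 0.866). The labels do not say what the mutation does to the transcript, so Emp3 does not check the labels.

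Both Gata2 probes carry the same transcript accession in the platform annotation, while RefSeq (GRCm38.p6) lists 2 curated Gata2 transcripts and 2 start sites. The probe sequences are not given, so which transcript a probe detects is not known here. The 250 bases before each Gata2 start are shown because the results turn on the disagreement of these probes, followed by those before the Gata1 start, all from RefSeq and read 5′ to 3′. Capitals mark the letters GATA on either strand.
Gata2 upstream start, chr6:88193641-88193890 (+ strand): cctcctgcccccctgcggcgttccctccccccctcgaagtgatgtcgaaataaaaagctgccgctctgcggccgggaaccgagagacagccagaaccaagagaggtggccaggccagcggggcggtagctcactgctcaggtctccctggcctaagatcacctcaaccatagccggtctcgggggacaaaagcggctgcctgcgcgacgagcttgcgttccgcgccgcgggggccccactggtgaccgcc
Gata2 downstream start, chr6:88198414-88198663 (+ strand): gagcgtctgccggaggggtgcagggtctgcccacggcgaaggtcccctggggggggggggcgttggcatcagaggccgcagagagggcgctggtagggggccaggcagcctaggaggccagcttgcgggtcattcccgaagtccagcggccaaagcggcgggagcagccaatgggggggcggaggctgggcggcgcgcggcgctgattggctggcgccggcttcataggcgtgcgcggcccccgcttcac
Gata1 start, chrX:7967911-7968160 (- strand): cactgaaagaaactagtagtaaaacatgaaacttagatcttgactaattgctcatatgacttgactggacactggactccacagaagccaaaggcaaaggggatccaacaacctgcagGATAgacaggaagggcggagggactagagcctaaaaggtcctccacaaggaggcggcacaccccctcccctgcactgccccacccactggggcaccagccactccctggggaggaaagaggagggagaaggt
The letters GATA, or TATC for the other strand, occurred once before the Gata1 start and not in either Gata2 window. Among all 32851 RefSeq windows of this length, 53.6% held them. The longer site bound by GATA factors, searched on both strands as GATA with A or T before it and A or G after it, was in none of the 3 and in 26.5% of all windows. Of all windows of 300 bases, which add 50 bases after the start, 29.8% held this longer site. The Gata3 window of 300 bases held 1 such site, beginning at base 37 after the start. It is shown with its surroundings as the only longer site among the Gata1, Gata2 and Gata3 windows, the site being in capitals.
Gata3 site, chr2:9878551-9878580 (- strand): ctgcctggcgccgtctTGATAGtttcagaa
A match in this text describes the letters only, and no match says only that they are not in the window.

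Gata2 had the most extreme value of the family, and only at 1 of its probes. In spleen, Gata2 probe 2785 was at -1.08, -1.15, -1.38 and -1.65 in mice 1 to 4. All 4 mice lay below the pool, with a mean log2 ratio of -1.32 ± 0.26 (SD, n = 4), or 2.49-fold more signal in the pool. The ratio was below 0 in both dye orientations, at -1.37, -1.10, -1.51 and -1.72 with the mutant RNA in Cy5 and at -0.80, -1.19, -1.26 and -1.59 with it in Cy3. The labels do not say whether the Cy3 arrays were already turned to mutant over pool. If they were not, the mean of this probe would be -0.11. Of the 20127 spleen probes measured in at least 3 mice, it was the 16th lowest, and 0.119% had a larger ratio in size.

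The second Gata2 probe did not share this. In spleen, Gata2 probe 18417 was at -0.08, 0.12, -0.12 and 0.10 in mice 1 to 4, a mean of 0.00 ± 0.12 (SD, n = 4). Mice 1 and 3 were just below the pool and mice 2 and 4 just above it. Probe 2785 minus probe 18417 was -0.999, -1.27, -1.26 and -1.75 in the 4 mice, with a mean of -1.32 ± 0.31 (SD, n = 4), and the mouse values of the probes did not overlap. On single arrays this difference ran from -1.957 to -0.468, below 0 on all 8 spleen arrays. The smallest in size was on the Cy3 array of mouse 1. If the Cy3 arrays were not turned, the mean difference would be -0.28. Among 1935 genes with exactly 2 measured probes in spleen, the median difference between the probes was 0.257 in size, and 10 genes (0.517%) had a difference at least as large as that of Gata2. The Gata2 gap was known when the probes were chosen, so this share describes its size and is no test. The text on Gata2 therefore describes probes, and the direction of the Gata2 transcript in spleen is not settled by them.

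**Figure D1:**
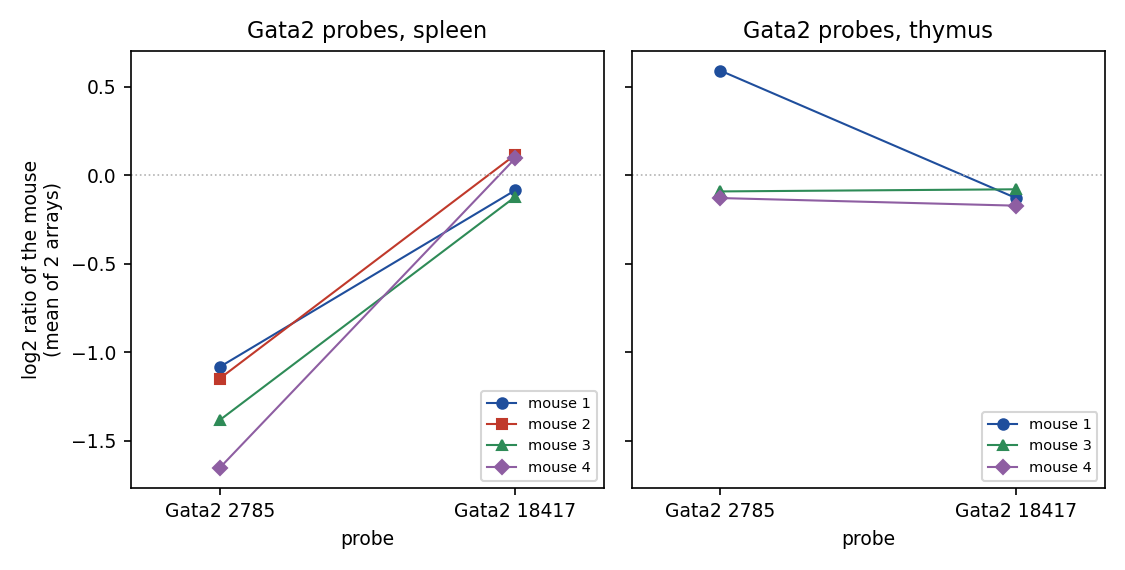
Log2 ratio of mutant over pool (y axis) at both Gata2 probes (x axis) for each mouse, the mean of its 2 arrays, in spleen (4 mice) and thymus (3 mice); lines join the probes of 1 mouse. Probe 2785 lies between -1.65 and -1.08 in spleen while probe 18417 stays between -0.12 and 0.12, and in thymus mouse 1 alone stands at 0.59 at probe 2785.

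In thymus, Gata2 probe 2785 was at 0.59, -0.09 and -0.13 in mice 1, 3 and 4. Mouse 1 stood above the pool on both of its arrays (0.73 and 0.46), while the arrays of mice 3 and 4 lay between -0.23 and -0.02. The mean was 0.13 ± 0.41 (SD, n = 3; adjusted p = 0.882 in limma), and without mouse 1 it was -0.11 (adjusted p = 0.592). Probe 18417 was at -0.13, -0.08 and -0.17 in mice 1, 3 and 4, all just below the pool, with a mean of -0.13 ± 0.05 (SD, n = 3). Its unadjusted p was 0.0367 in limma and its adjusted p 0.866. In thymus the difference between the probes was 0.72, -0.01 and 0.04 in mice 1, 3 and 4, so the negative gap of spleen was not seen there. The mean difference was 0.25 ± 0.41 (SD, n = 3), which lay above 0 through mouse 1. Of the genes with exactly 2 measured probes in spleen, 1903 also had thymus means for both. Among these the median thymus difference was 0.067 in size. Of these, 80 genes had a difference at least as large as that of Gata2. The change of the gap between the tissues was not tested.

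Set against thymus in the same animal, spleen minus thymus of Gata2 probe 2785 was -1.67, -1.29 and -1.53 in mice 1, 3 and 4 on the log2 scale. Their mean was -1.50, and the mean of all 4 spleens minus that of the 3 thymi, which is not within animals, was -1.44. For probe 18417 the same differences were 0.04, -0.04 and 0.27. Mouse 1 had the largest difference through its thymus value, since its spleen value (-1.08) was the least extreme of the 4. No test was made of these differences; over all probes 13.9% differed between the tissues at an adjusted p of 0.05 in limma, 5.91% higher and 8.04% lower in spleen. These are 2781 of 19948 probes, and 601 of 19381 with the mouse as a block.

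Gata1, the factor of red cells and megakaryocytes, was at 0.07, 0.32, 0.52 and 0.22 in the spleens of mice 1 to 4. Every mouse mean was above the pool, with a mean of 0.28 ± 0.19 (SD, n = 4), or 1.22-fold. The single arrays were not alike, however. With the mutant RNA in Cy5 the Gata1 ratio was 0.31, 0.68, 1.08 and 0.55, and with it in Cy3 it was -0.17, -0.04, -0.04 and -0.10. All 4 Cy5 arrays were above 0 and all 4 Cy3 arrays below it, and the orientations did not overlap. The mean Cy5 minus Cy3 difference of 0.74 ± 0.27 (SD, n = 4) exceeded the mean ratio, and 6.10% of all probes had a larger one in size. The Gata1 mean is thus the balance of opposite signs.

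In thymus, Gata1 was at 0.16, -0.07 and -0.04 in mice 1, 3 and 4, a mean of 0.02 ± 0.13 (SD, n = 3; adjusted p = 0.956 in limma). The orientations again fell apart there, with a Cy5 minus Cy3 difference of 0.66 ± 0.35 (SD, n = 3). All 3 Cy5 arrays were above 0 (0.61, 0.34 and 0.09) and all 3 Cy3 arrays below it (-0.29, -0.49 and -0.17). These values bear on a doubt about the files: the ratios are taken as already turned so that mutant over pool has 1 sign on both arrays. If the Cy3 arrays were not turned, Gata1 would be at 0.37 in spleen and 0.33 in thymus. Over all probes, Pearson's r within an array pair was 0.0518 to 0.424 in spleen but -0.440 to -0.249 in the thymus pairs kept, so the direction of the thymus ratios is not settled. The labels do not settle which reading is right, and a dye effect and a difference from the pool cannot be told apart at this probe without that.

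Gata3, the T cell factor, had the smallest SD between mouse means of the 5 probes in spleen. It was at 0.31, 0.36, 0.26 and 0.34 in mice 1 to 4, with a mean of 0.32 ± 0.04 (SD, n = 4), or 1.25-fold. All 8 spleen arrays were above 0, from 0.12 to 0.55, and the Cy5 and Cy3 arrays overlapped (means 0.30 and 0.33). Of all probes tested in spleen, 97.4% had a larger SD between mice, and 25.0% a larger mean ratio in size. The 2 arrays of a mouse were less alike. Their Cy5 minus Cy3 difference ran from -0.43 to 0.339, with an SD of 0.32 (n = 4), and partly cancelled in the mouse means. In thymus, the organ where T cells develop, Gata3 was at 0.22, 0.03 and -0.02 in mice 1, 3 and 4. The thymus mean was 0.07 ± 0.13 (SD, n = 3; adjusted p = 0.866 in limma), and only mouse 1 lay clear of 0, through its Cy5 array (0.52, against -0.08 with Cy3). Spleen minus thymus of Gata3 was 0.09, 0.23 and 0.36 in mice 1, 3 and 4, above 0 in each. If the Cy3 arrays were not turned, Gata3 would be at -0.014 in spleen and 0.08 in thymus.

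Gata6, known mainly from organs outside the blood, was at -0.20, -0.08, 0.20 and 0.07 in the spleens of mice 1 to 4, a mean of 0.00 ± 0.17 (SD, n = 4). Behind this mean lay the widest dye gap of the family. The Cy5 arrays were at 0.68, 0.04, 0.47 and 0.39 and the Cy3 arrays at -1.073, -0.20, -0.08 and -0.25, which did not overlap. The Cy5 minus Cy3 difference was 0.80 ± 0.66 (SD, n = 4), and mouse 1, with 1.754, was the farthest apart. In thymus Gata6 was at 0.07, -0.09 and -0.12 in mice 1, 3 and 4, a mean of -0.05 ± 0.10 (SD, n = 3; adjusted p = 0.883 in limma). If the Cy3 arrays were not turned, Gata6 would be at 0.40 in spleen and 0.24 in thymus.

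**Figure D2:**
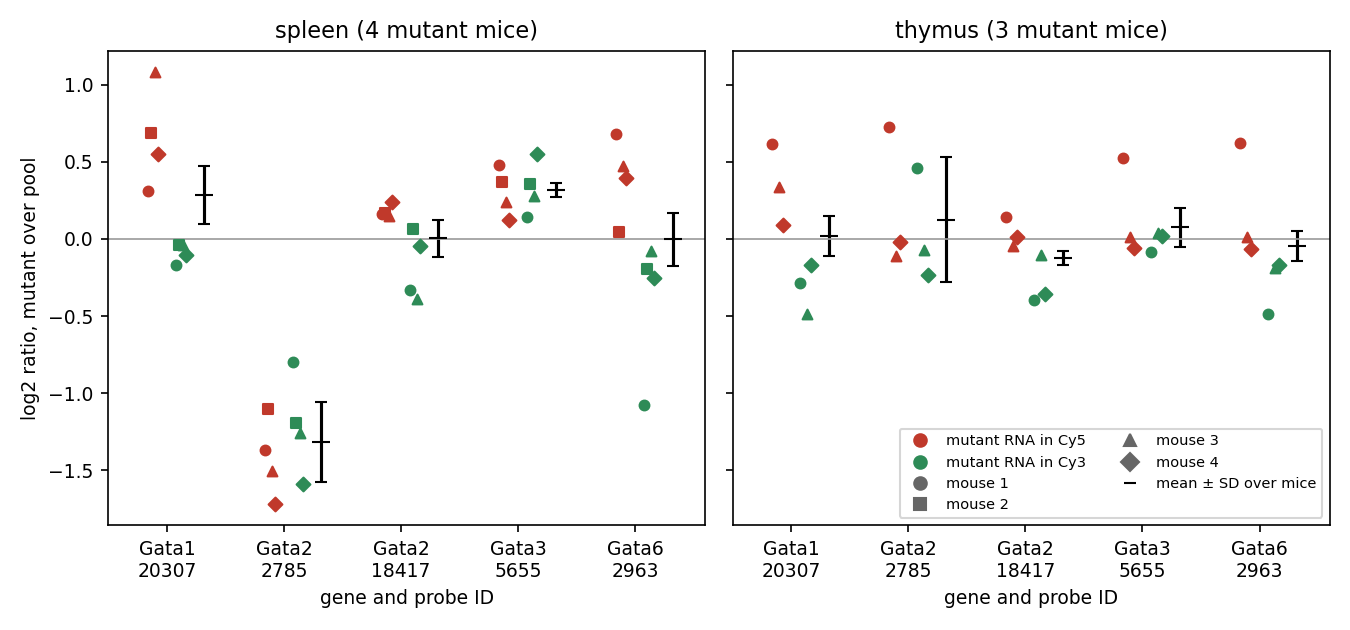
Log2 ratio of mutant over pool (y axis) on every array for the 5 GATA probes (x axis), in spleen and thymus; red points had the mutant RNA in Cy5 and green points in Cy3, marker shapes are mice, and the black bar is the mean ± SD over mice. In spleen, Gata2 probe 2785 is below 0 in both colours and Gata3 above 0 in both, while Gata1 and Gata6 are above 0 in red and below 0 in green.

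In order of the spleen ratio, Gata2 probe 2785 came lowest, then Gata6, Gata2 probe 18417, Gata1 and Gata3. Probe 2785 overlapped with no other member over mice. Gata6 and Gata2 probe 18417 overlapped with each other, and so did Gata1 and Gata3, the Gata1 mice spanning all Gata3 values. The lowest Gata1 mouse (0.07) also lay inside the ranges of probe 18417 and Gata6. In thymus the means of all 5 lay between -0.13 and 0.13. In limma 0 of 5 GATA probes passed an adjusted p of 0.05 in thymus, beside 0% of all 20130 probes tested there. An unadjusted p under 0.05 was found for 1 of 5, Gata2 probe 18417, and for 725 of the 20130. Over the alternatives in processing, the adjusted p of the GATA probes ran from 0.456 to 0.9997.

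Each GATA probe was set beside its neighbours in ID order, the only position the files give. Around Gata2 probe 2785, 9 of the 10 probes within 5 IDs had spleen ratios between -0.31 and 0.06, and the other, probe 2787 with no gene name, was at -0.81 ± 0.25 (SD, n = 4). The running median of spleen ratios along the IDs was -0.05 there. The Gata2 probe 18417 lay where the running median was 0.00, and Gata6 likewise. Gata3 sat among slightly raised probes, with a running median of 0.17, and stood at 0.15 once this was removed. Gata1 lay in a stretch of low ratios, where 5 of its 10 neighbours were below -0.5, among them Gapdh (-0.84) and Gna13 (-0.90). The running median was -0.32 there, and with it removed Gata1 was at 0.60. What part position plays in these ratios was not tested.

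**Figure D3:**
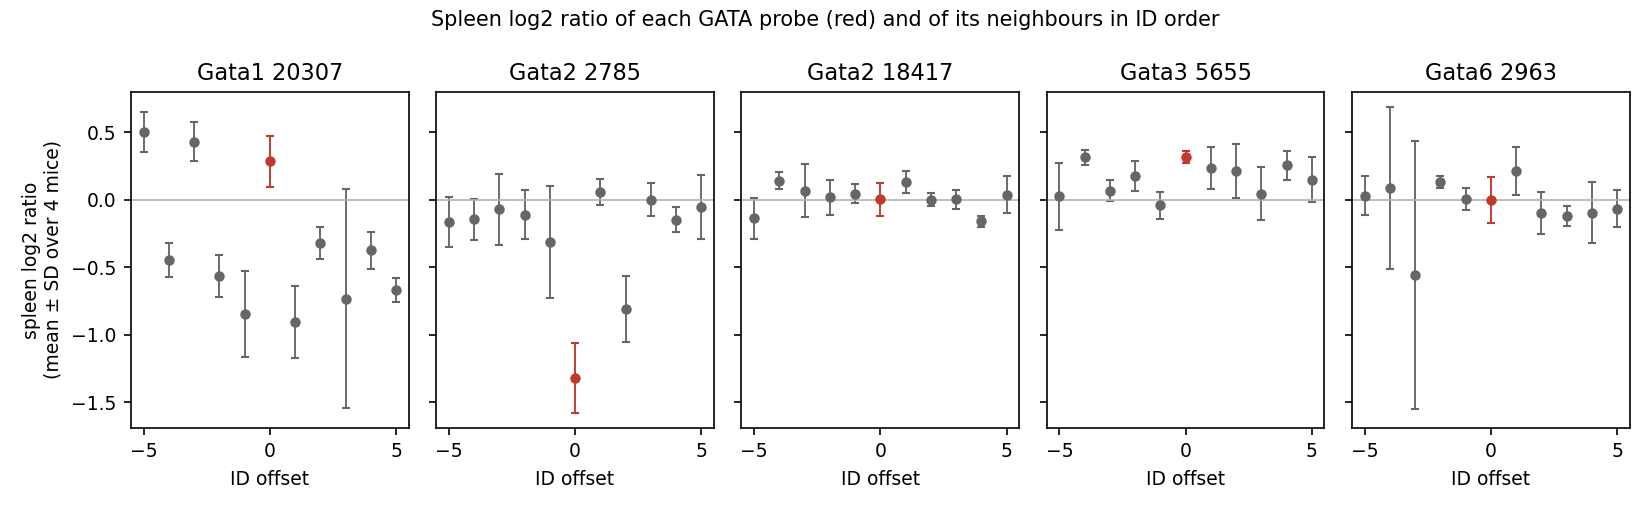
Spleen log2 ratio (y axis, mean ± SD over 4 mice) of each GATA probe (red) and of the 10 probes within 5 IDs of it (grey, x axis in ID steps). Gata2 probe 2785 stands at -1.32 with 1 low neighbour at -0.81, Gata3 at 0.32 among values at or above -0.04, and Gata1 at 0.28 among mostly low values.

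The probes most like each Gata2 probe were sought over the 7 mouse values of both tissues, by the root mean square difference, among 11898 other probes with 1 gene symbol. Nearest to probe 2785 were Cntn4, an axonal adhesion protein, with a difference of 0.324, Zc3hc1 (0.328), the transcriptional repressor Hes3 (0.334), Ifrd2 (0.334) and Thyn1 (0.339). Their spleen means lay between -1.08 and -0.93 and their thymus means between -0.15 and 0.08. The probes were ranked by these same values, so close means follow from the choice. Nearest to probe 18417 were Tcap (0.0632), Tubgcp2 (0.0634), Entpd2 (0.0683), Zfp606 (0.0698) and Tsc2 (0.0728), all with spleen means between -0.02 and 0.04. The other Gata2 probe came 5281st in the order for probe 2785 and 11885th in that for probe 18417, at a difference of 1.05. These ranks restate the spleen gap between the Gata2 probes, which was known beforehand, and are no separate support.

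Genes that act with GATA factors or mark the cells they specify were followed in 5 lists, chosen with earlier results of these data known. With 1 pool as the control for a tissue, the limma test of a ratio against 0 does not include the spread between wild-type mice. Over all spleen probes 25.3% passed an adjusted p of 0.05 (13.4% higher, 11.9% lower), and over those with 1 gene symbol 25.8%, with 13.0% higher, 12.7% lower and a median ratio of 0.04. Of 140 tested probes of the 5 lists together, 17 were higher and 17 lower (24.3%), with a median of 0.00, which is close to the background. Leaving out mouse 2 or mouse 4 lowered the total to 19 or 18. These were 5 and 5 cofactor, 7 and 6 erythroid, 2 and 1 progenitor, 2 and 3 T cell and 3 and 3 cardiac probes. Over all spleen probes the calls fell in the same runs, from 5086 to 2351 of 19498 and 2366 of 19464. In thymus 0 of 143 passed, beside 0% of all probes.

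Among 31 tested probes of cofactors and partner factors, 5 were higher and 5 lower (32.3%) in spleen, with a median of -0.04. Runx1, a partner of GATA factors in blood stem cells and megakaryocytes, was at probe 6705 at 0.54, 0.54, 0.53 and 0.71 in mice 1 to 4, a mean of 0.58 ± 0.09 (SD, n = 4; adjusted p = 0.00413 in limma). Its other probe, 2304, was below 0 in all 4 mice, at -0.44, -0.29, -0.04 and -0.40, and missed the threshold (-0.29 ± 0.18, SD, n = 4; adjusted p = 0.0511), so the direction of Runx1 is not settled by its probes. Chd4, the motor of the NuRD complex that the cofactor FOG1 recruits, was higher by 0.52 ± 0.11 (SD, n = 4; adjusted p = 0.00515). Lmo2, the bridge that joins GATA factors to TAL1, was at -0.66, -1.27, -0.81 and -1.17, a mean of -0.98 ± 0.29 (SD, n = 4; adjusted p = 0.00431). Kdm1a, a histone demethylase of repressor complexes, was lower by 0.71 on average (-0.71 ± 0.32, SD, n = 4; adjusted p = 0.0124). Lmo2 and Kdm1a lie in stretches of low ratios like that of Gata1, with running medians of -0.35 and -0.43. With these removed Lmo2 was at -0.67 (adjusted p = 0.0101) and Kdm1a at -0.32, which missed the threshold (adjusted p = 0.127).

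Among 32 tested probes of erythroid and megakaryocyte genes, where GATA1 acts, 6 were higher and 5 lower (34.4%), with a median of 0.03. Hba-x, the embryonic alpha-like globin, was at 1.09, 0.90, 0.72 and 0.93, a mean of 0.91 ± 0.15 (SD, n = 4; adjusted p = 0.00401 in limma), and the heme synthesis enzyme Uros was higher at 0.61 ± 0.09 (SD, n = 4; adjusted p = 0.00401). The adult alpha-globin Hba-a1 was lower at probe 15435, with -0.50, -0.50, -0.56 and -0.51 and a mean of -0.52 ± 0.03 (SD, n = 4; adjusted p = 0.00413), and so was Sptb, the beta-spectrin of the red cell membrane, at -0.64 ± 0.10 (SD, n = 4; adjusted p = 0.00401). The list did not move as one: 16 of its 32 probes were below 0. The other 4 Hba-a1 probes lay between -0.20 and 0.10, and none passed. Of the other Sptb probes, 5295 passed in the opposite direction, at 0.38 ± 0.15 (SD, n = 4; adjusted p = 0.0180).

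Among 18 tested probes of progenitor and mast cell genes, where GATA2 acts, 2 were higher and 2 lower (22.2%), with a median of -0.06. The granule enzyme Mpo was lower at probe 4927, with -0.54, -0.56, -0.62 and -0.61, a mean of -0.58 ± 0.04 (SD, n = 4; adjusted p = 0.00401 in limma), and neutrophil elastase (Elane) at -0.38 ± 0.09 (SD, n = 4; adjusted p = 0.0104). The mast cell carboxypeptidase Cpa3 was higher at 0.40 ± 0.25 (SD, n = 4; adjusted p = 0.0397), and Fcer1g, the shared chain of Fc receptors, at 0.26 ± 0.13 (SD, n = 4; adjusted p = 0.0471). These last calls were weak: Fcer1g missed the threshold without any 1 of the 4 mice, and Cpa3 without mouse 1, 2 or 4. Elane missed it without mouse 4. Cpa3 lies among raised probes (running median 0.31) and was at 0.11 with this removed (adjusted p = 0.422). The other Mpo probes, at -0.15 and 0.31, did not pass.

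Among 36 tested probes of T cell and T helper 2 genes, where GATA3 acts, 3 were higher and 2 lower (13.9%), with a median of 0.06. The T cell receptor adaptor Lat was at 0.74, 0.74, 0.61 and 0.60, a mean of 0.67 ± 0.08 (SD, n = 4; adjusted p = 0.00401 in limma), the receptor chain Cd247 at 0.45 ± 0.05 (SD, n = 3; adjusted p = 0.0143) and the factor Lef1 at 0.28 ± 0.06 (SD, n = 4; adjusted p = 0.0229). The Cd247 call missed the threshold with the variance of the pool added (adjusted p = 0.0593), in the test against 1.2-fold (adjusted p = 0.251) and with placeholders kept, and the other 3 Cd247 probes, at 0.18, -0.23 and -0.15, did not pass. Lef1 missed the threshold without mouse 2 or mouse 4, and with the running median removed (0.22, adjusted p = 0.0621). The other Lat probe was at 0.17 ± 0.17 (SD, n = 4) and did not pass. Neither did the other Lef1 probes, at -0.23, 0.14, 0.05 and 0.04. The T cell factor Bcl11b was lower at probe 33, at -0.47 ± 0.05 (SD, n = 4; adjusted p = 0.00505), while its other probe was at 0.26 and did not pass. Among 23 probes of cardiac, endoderm and stromal genes, 1 was higher and 3 lower (17.4%), with a median of -0.02. The muscle factor Mef2c was at probe 18756 at -0.79 ± 0.18 (SD, n = 4; adjusted p = 0.00401), the heart and limb factor Tbx5 at -0.77 ± 0.20 (SD, n = 4; adjusted p = 0.00425), cardiac actin (Actc1) at -0.60 ± 0.15 (SD, n = 4; adjusted p = 0.00505) and the thyroid hormone carrier Ttr at 0.29 ± 0.14 (SD, n = 4; adjusted p = 0.0364). The other Mef2c probe was at 0.26 ± 0.35 (SD, n = 4) and the other Ttr probe at -0.32 ± 0.44 (SD, n = 4), and neither passed. Ttr missed the threshold without any 1 of the 4 mice. Tbx5 lies where the running median was -0.40 and kept its call with this removed (-0.30, adjusted p = 0.0499). The other Tbx5 probe was at -0.29 ± 0.19 (SD, n = 4) and did not pass.

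**Figure D4:**
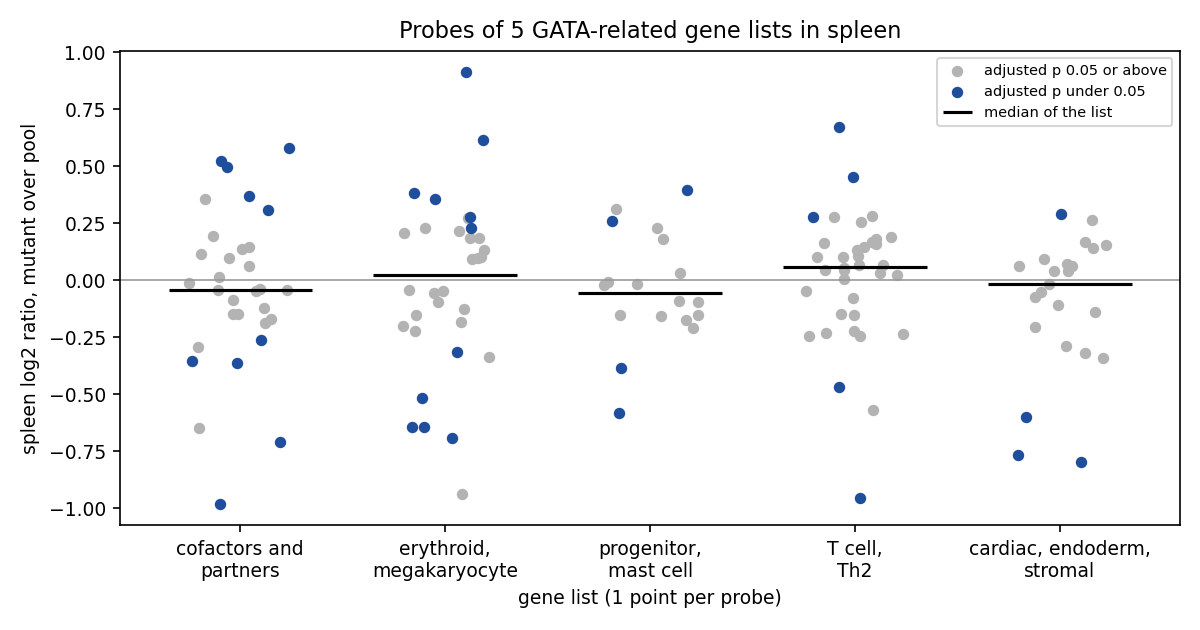
Spleen log2 ratio of mutant over pool (y axis, mean over mice) of each tested probe in the 5 gene lists (x axis); blue points passed an adjusted p of 0.05 in limma, grey points did not, and the black line is the median. Called probes lie on both sides of 0 in all lists, and the medians lie between -0.06 and 0.06.

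Markers of other cells the organs could hold were read against the 25.3% of all spleen probes that passed. In spleen 0 of 4 B cell probes passed, 1 of 7 macrophage probes was higher and 1 lower (28.6%, C1qc at 0.63 and C1qb at -0.42), and 0 of 2 pancreas probes passed. Of 9 endothelial probes 2 were lower (22.2%, Cdh5 probe 20279 and Tek probe 20379). The other Cdh5 probe, 15648, was at -0.21 and did not pass. Below 0 were 8 of the 9, several of them probes of the same gene, beside 5373 of the 12397 spleen probes with 1 gene symbol. Of 4 fat probes 1 was lower (25.0%, Adipoq). Of 10 probes of thymic epithelium, a cell type of the other organ, 3 were higher and 1 lower in spleen (40.0%). Psmb11 (0.55), Krt18 (0.41) and Cldn4 (0.33) were higher and Aire (-0.54) lower. These spleen calls cannot be read as a change of that cell type. The median spleen ratios of the marker lists ran from -0.21 for pancreas to 0.11 for thymic epithelium. In thymus no marker probe passed. The part of these cells in the GATA ratios was not tested.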

How the data were processed

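Log ratios deposited by the authors for 16 two-colour arrays were read as log2 ratios; the sources used here do not give background correction, normalization or build. On each array 1 constant of 15.085 to 16.925 in size, at 25 to 137 probes, was read as a placeholder and set to missing. Its sign followed the dye of the mutant on every array, and the arrays were read as sharing 1 orientation. The 2 arrays of a mouse were averaged where both had a value, and a probe needed 3 mice. Ratios against 0 were tested with limma 3.58.1 in R 4.3.3, each tissue alone, and spleen minus thymus in 1 fit of both, with Benjamini-Hochberg adjustment over all probes tested at 0.05. The fits were tested on simulated data.

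Thymus mouse 2 was left out: at 83.7% of probes its 2 arrays summed to within 0.01 of their median sum. The platform annotation named 12771 of 20794 probes, all matched in RefSeq (GRCm38.p6) by gene number. Members, lists and rules were chosen with earlier results of these data known. Named are all GATA probes, of each list the 4 probes with the smallest spleen p, and the 5 probes nearest to each Gata2 probe. Further lists marked B cells, macrophages, endothelium, thymic epithelium, pancreas and fat. Pairing of the tissues comes from the labels, which give both from 1 animal, although their deviations correlated at only -0.057, -0.002 and -0.073 for mice 1, 3 and 4. Only separate animals were counted as replicates. Alternatives were the dye reading, centring, position, array and placeholder rules, the pool's variance, a 1.2-fold test, the joint fit and each mouse left out.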

Additional observations from a re-analysis of the deposited data

Results flagged for a closer look

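In spleen, 36 sets of 4 mouse values were checked for a mouse far from the others, and chance flags about 1 set in 20. No GATA probe was among those found. Runx1 probe 6705 was at 0.714 in mouse 4, with the other mice between 0.53 and 0.54. Cntn4 probe 20509 was at -0.612 in mouse 1, with the lowest mouse at -1.27.

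Of the 20 probes named from the lists, 13 differed between spleen and thymus in limma, beside 13.9% of all probes. They were named for their spleen p in overlapping data, so this count is no separate support. Spleen minus thymus was higher for Runx1 (0.456), Chd4 (0.454), Hba-x (0.873), Uros (0.531) and Lat (0.585). It was lower for Lmo2 (-0.872), Sptb (-0.565), Hba-a1 (-0.552), Mpo (-0.582), Bcl11b (-0.399), Mef2c (-0.666), Tbx5 (-0.624) and Actc1 (-0.668). With the mouse as block the adjusted p missed the threshold for Runx1 (0.102), Chd4 (0.0623), Sptb (0.0515), Uros (0.0761), Bcl11b (0.107), Mef2c (0.0744) and Tbx5 (0.0528).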

How the results depend on the processing

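The reading of the dye exchange weighs most. The other reading takes the deposited Cy3 arrays as not yet turned, so that their sign was turned here. The spleen ratio of Gata2 probe 2785 was then -0.11, of probe 18417 0.18, of Gata3 -0.014 and of Gata6 0.40, and the Gata2 probes differed by -0.28. In thymus, Gata2 probe 18417 was then at 0.16 and Gata6 at 0.24, both with the sign reversed. Under that reading 1 probe passed in spleen, 0 for spleen minus thymus and 0 of the listed probes, against 5086, 2781 and 34. In thymus 0 probes passed in limma under either reading, but 2164 had an unadjusted p under 0.05 under the other reading against 725. The signs of Kdm1a (0.32), Hba-x (-0.11), Sptb (0.0805), Mpo (0.0249), Fcer1g (-0.0292), Lat (-0.0712), Lef1 (-0.0496) and Actc1 (0.38) turned under it. With the running median removed Gata1 was at 0.60 and Gata3 at 0.15 in spleen. Spleen calls fell to 1689 with the pool's variance added, which ended 7 of the 20 named calls, and to 887 in the 1.2-fold test, which left 10 listed probes and 9 of the 20 named ones. The split of spleen calls, 2691 higher and 2395 lower, was 1702 and 2260 with the running median removed. With the mouse as replicate block 601 probes differed between the tissues, and with thymus mouse 2 kept 4553 did; the causes were not tested.

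Leaving out 1 mouse gave 2351 to 4867 spleen calls (2351 without mouse 2, 2366 without mouse 4), 18 to 37 listed calls (19 without mouse 2, 18 without mouse 4), 0 to 1 in thymus (1 without mouse 1) and 0 to 2260 for the difference (10 without mouse 3, 0 without mouse 4). The ratio of Gata2 probe 2785 ran from -1.39 to -1.20 in spleen and from -0.11 to 0.25 in thymus, Gata1 from 0.21 to 0.36 and from -0.057 to 0.062, and the Gata2 pair differed by -1.43 to -1.18. No GATA probe passed in thymus under any alternative run. For the lists and their named probes, the runs without a mouse, with 1 array of a pair or with placeholders kept were chosen after seeing the data. So were the pool's variance and the joint fit for the named probes, and, for the Gata2 pair, the array and placeholder rules and keeping thymus mouse 2.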
